A study of Mus musculus with 147 samples.

Results

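Fetal Sertoli cells of the mouse testis were taken from the reporter-negative cells of wild-type gonads between E12.5 and E18.5. A cell was counted as a member when *Sox9* and *Amh* were each at 100 CPM or more (the molecules counted for a gene in each 1000000 of the cell) and *Nr2f2*, a gene of interstitial cells, was under 100 CPM. Of 519 Negative wild-type cells that passed the filter on genes and molecules, 23.3% met this rule and 398 did not, and these are called the other Negative cells. The members were thus chosen by the measured levels of these 3 genes, so that every difference between the members and the other Negative cells was treated as a description without a test. The whole series held 13032 cells, of which 12692 passed the filter.

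Sertoli cells are the supporting cells of the testis cords. SRY switches on *Sox9* in their precursors, SOX9 maintains itself and drives *Amh*, and the cells then enclose the germ cells, send anti-Müllerian hormone to the Müllerian duct and send desert hedgehog and PDGF to the interstitial precursors of Leydig and peritubular cells. Fetal Sertoli cells divide, and FSH and androgen responses belong to later stages of their life.

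The study followed male germ cells from the epiblast to the adult by a modified STRT-seq, a single-cell method that reads transcript 3′ ends and marks each molecule with a unique molecular identifier (UMI). The embryos came from C57BL/6 females and males homozygous for the reporters *Blimp1*-mVenus and *Stella*-ECFP, so that all the wild-type pools described here carried both reporters on this background. Negative cells are those without reporter fluorescence in flow cytometry, and gonads of E13.5 to E16.5 were cut into a part near the mesonephros (P), a central part (C) and a far part (D). A pool is the cells of 1 time-point and 1 replicate. The *Helq* null pools carried a deletion made by genome editing in the first exon of *Helq*, a DNA helicase gene, and were sorted at the same gate. Per the paper, that line came from edited stem cells with both reporters, by way of chimeric mice bred with each other. Its breeding thus differs from the wild-type cross, and effects of genotype and of breeding cannot be told apart. The study calls its replicates independent. By its count, the wild-type pools of these days each joined more than 1 embryo or gonad, with the fewest at E17.5 and E18.5. That count does not tell embryos from gonads. The embryos or gonads of a pool are not told apart among the cells, so that p-values measure only the spread between these pools.

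The members came from 12 of 14 wild-type pools and 13 libraries. In the 8 pools with at least 5 members, which carry all tests below, the members of a pool held between 780476 and 4756819 UMIs in all, and the median member cell held between 142075 and 456396 UMIs. The plates share a set of 96 well barcodes, of which 63 were used by members, and up to 11 barcodes of members were found in a pair of libraries. None of the 848 cells compared had the counts of another. E13.5 replicate 1 and a *Helq* null pool shared a library.

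The lowest *Sox9* among members was 118.2 CPM, and the highest among the 6 cells that failed on *Sox9* alone was 58.99 CPM. For *Amh* the nearest values were 120.1 CPM inside and 52.4 CPM among the 11 cells that failed on *Amh* alone. For *Nr2f2* they were 91.05 CPM inside and 244 CPM among 4 cells outside. Summed per pool, *Sox9* stood between 331 and 491 CPM and *Amh* between 573 and 976 CPM in the members of the 8 pools.

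**Figure D1:**
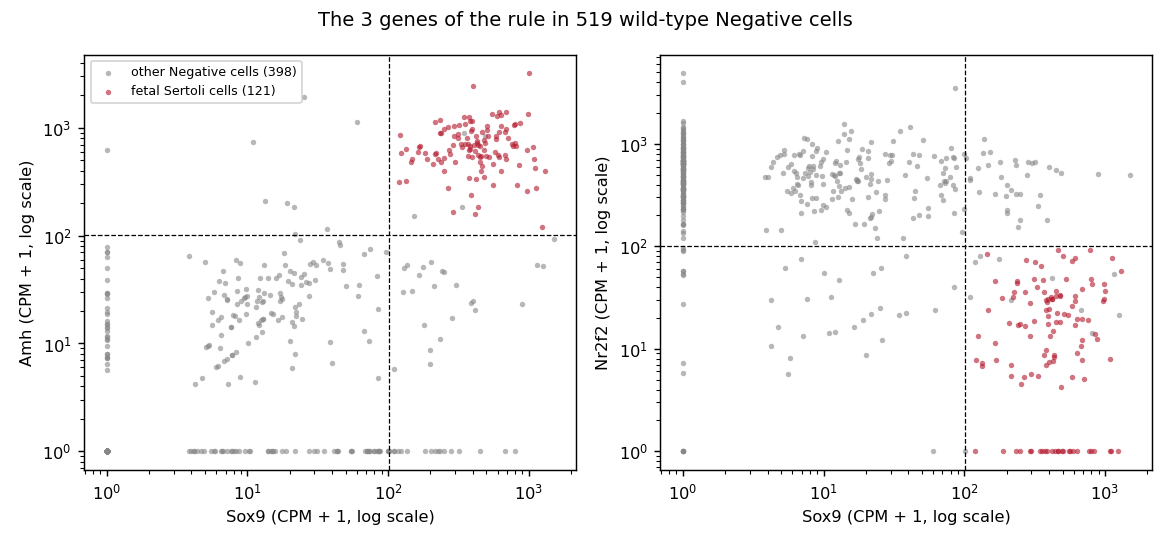
Each point is 1 of 519 wild-type Negative cells, with CPM + 1 of the 3 genes of the rule on log axes and the fetal Sertoli cells in their own color. The members form the group with high *Sox9* and *Amh* and low *Nr2f2* by construction, with *Sox9* from 118.2 CPM upward.

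The other markers chosen for the cell type were *Kctd14*, *Hsd17b1*, *Dhh*, *Aard* and *Cldn11*. Each was at 100 CPM or more in a larger share of members than of the other cells. At that level *Dhh*, *Aard* and *Cldn11* were found in 95.9%, 69.4% and 35.5% of members, against 2.76%, 5.28% and 3.77% of the others. The median *Cldn11* of a member cell was 0 CPM in both E17.5 pools. *Kctd14*, a gene of early Sertoli cells, was at 100 CPM or more in every member, with a median of 927 CPM, and in 34.2% of the other cells. *Hsd17b1*, which encodes a hydroxysteroid dehydrogenase made by fetal Sertoli cells, reached 100 CPM in 93 (76.9%) of the members and in 11 (2.76%) of the other cells. The 28 members under that level were unevenly spread. In the 9 members of both E12.5 pools and of E13.5 replicate 1, no UMI of *Hsd17b1* was counted, which allows up to 1.83 CPM over these cells, while *Kctd14* stood at 1580 CPM in E12.5 replicate 1, 1220 CPM in E12.5 replicate 2 and 804 CPM in E13.5 replicate 1. All 12 members of E15.5 replicate 1 and all 12 of E17.5 replicate 2 passed 100 CPM of *Hsd17b1*, as did 23 of 24 in E16.5 replicate 1. In E13.5 replicate 2 it was 5 of 10 cells and in E14.5 replicate 1 it was 8 of 17. *Sry*, the switch gene that acts earlier, had no UMI in the 8 pools.

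The share of fetal Sertoli cells among Negative cells ranged from 0 to 78.3%, and replicates of a day could lie far apart. At E12.5 it was 16.7% in replicate 1 and 3 of 24 cells in replicate 2, and at E13.5 4.26% and 20.8%. At E14.5 replicate 1 gave 36.2%, while 0 of 48 cells in replicate 2 were members, which allows a share of up to 6.25%. E15.5 gave 25.5% and 24.4%, the closest pair. At E16.5 the shares were 50% and 10.4%, and at E17.5 78.3% and 50%. At E18.5 0 of 24 cells of replicate 1 were members, which allows up to 3 such cells in 24, and 13.6% of replicate 2 were. Over the 14 pools the correlation of share and day was not past the threshold (Pearson r = 0.306, permutation p = 0.294, Spearman rho = 0.191, permutation p = 0.512, two-sided). The 4 pools of E12.5 and E18.5 lie equally far from the median day. Without both pools of E12.5 r was 0.246, without both of E18.5 it was 0.692, and without all 4 it was 0.712, so that its size rests on the E18.5 pools. Intervals and limits on shares cover counting error only, and in these sorts fewer cells of a type and a different draw at the gate cannot be told apart.

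**Figure D2:**
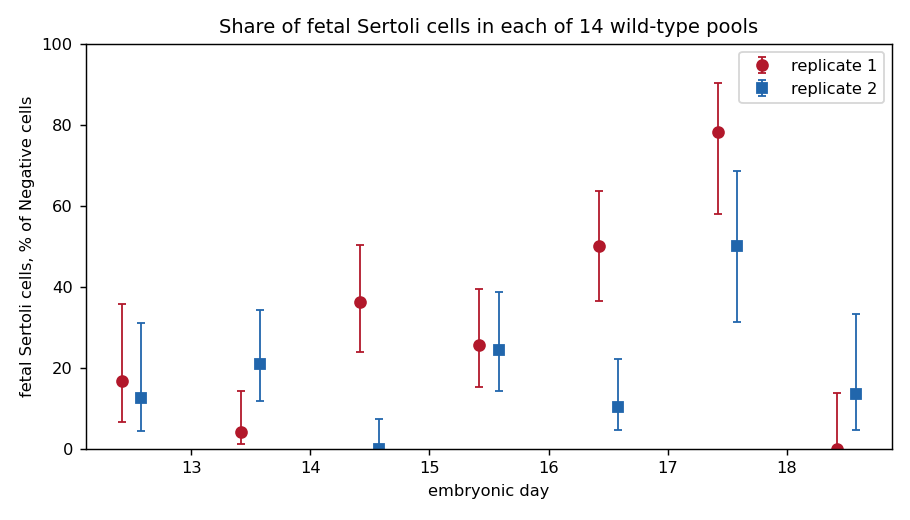
The share of fetal Sertoli cells in percent of the Negative cells is plotted against embryonic day for each of 14 wild-type pools, with 95% Wilson intervals and the replicates marked by symbol and color. Replicates of E14.5, E16.5 and E18.5 lie far apart, and both E17.5 pools are at 50% or above.

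Along the gonad, the mean share of fetal Sertoli cells was lowest in D and highest in P, a difference that did not pass the test. They made up 14.1 ± 16.6% of Negative cells in D, 20.7 ± 15.9% in C and 29.9 ± 25.6% in P (mean ± SD, n = 8 pools). D was lower than P in 6 of 8 pools and higher in 1. The mean difference was −15.8 percentage points (exact permutation test within pools, two-sided, p = 0.0625). E14.5 replicate 2 had no member in D or P, and without this pool p was again 0.0625, where the smallest possible is 0.0156. Without E16.5 replicate 2 D was lower in 6 pools and higher in 0. The difference was then −19.8 points, with an exact p of 0.0313, the smallest that these pools could give.

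Against the other Negative cells of the same pools, 263 (2.44%) of 10769 genes at 10 CPM or more were at least 4-fold higher in the mean and higher in all 8 pools, and 538 (5.0%) were at least 4-fold lower and lower in all 8. Genes of a list counted as 4-fold higher or lower met both conditions. These counts describe what the choice of cells separated. Where the thresholds were raised, the other cells took in the Sertoli cells that no longer passed, and the count of higher genes was 90.

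Among the transcription factors of sex determination, the SOX and DMRT members set the fetal Sertoli cells apart more than the factors shared by all gonadal somatic cells. *Dmrt1*, which holds the male fate after birth, ran between 48.1 and 156 CPM with a median of 87.2 CPM in members and between 0.613 and 14.6 CPM in the other cells, a log2 ratio of 4.03. *Sox8*, a relative of *Sox9* that acts with it, ran from 45.4 to 120.4 CPM, with a log2 ratio of 3.23. The pools of members lay above every pool of other cells for both genes. *Wt1* (326 ± 47.8 against 134.8 ± 64.2 CPM), *Nr5a1* (219.8 ± 47.9 against 105.1 ± 34.8 CPM) and *Gata4* (272 ± 78.3 against 159.7 ± 49.8 CPM), which gonadal somatic cells need from the start, differed less, and *Gata4* was higher in members in 7 of 8 pools. *Lhx9*, a factor of gonadal progenitors, went the other way at 23.7 ± 19 against 204 ± 66.8 CPM. Of 14 factors at 10 CPM or more, leaving out the genes of the rule, *Dmrt1* and *Sox8* were the 2 among the 4-fold higher genes and *Lhx9* the 1 among the lower. The median log2 ratio of the list was 0.93, beside −0.06 for all genes.

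The secreted proteins showed a split within a family, between the activin and inhibin subunits. *Inhbb*, the beta B subunit, was at 164 ± 27.8 CPM in members and 13.3 ± 7.65 CPM in the other cells, and *Inha*, the alpha subunit shared with Leydig cells, at 900.2 ± 317 against 236 ± 88.7 CPM. *Inhba*, the beta A subunit of activin A, was at 7.59 ± 7.32 against 266 ± 126.2 CPM, a log2 ratio of −5.16. So members carried beta B and the other cells beta A, with no overlap of the pools in either gene. *Dhh*, the hedgehog ligand read by Leydig and peritubular precursors, ran from 280.0 to 589.6 CPM in members and from 12.2 to 60.5 CPM in the other cells. *Pdgfa*, *Kitl* and *Gdnf*, ligands for interstitial cells, for KIT on germ cells and for spermatogonial stem cells, had means of 239, 328 and 54 CPM, against 45.4, 90 and 6.19 CPM. *Fgf9*, which backs *Sox9* in the first days, was at 51.8 CPM in E13.5 replicate 2 and between 0 and 20.8 CPM in the other 7 pools. Of 20 secreted proteins at 10 CPM or more, *Amh* not counted, 10 were among the 4-fold higher genes and 3 among the lower, with a median log2 ratio of 1.97. The chemokine *Cxcl12* was at 28.6 ± 22 against 469 ± 130.6 CPM and the growth factor *Igf1* at 23.8 ± 24 against 199 CPM.

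Prostaglandin genes gave a second split, with 2 enzymes that finish a prostaglandin higher in members and *Ptgs1*, which starts it, lower. *Ptgds*, which makes prostaglandin D2, a signal that helps to spread *Sox9* expression, ran from 854 CPM in E13.5 replicate 2 to 1450.4 CPM in E16.5 replicate 2, and was 181 ± 98.1 CPM in the other cells. Of 9 genes of the list 2 were among the 4-fold higher and 1 among the lower. *Ptges*, which makes prostaglandin E2, was at 112.9 ± 45.6 against 12.48 ± 10.1 CPM. The cyclooxygenases that supply the substrate of both were nearly silent in the members of the 8 pools. *Ptgs1* was at 0.624 CPM against 32.6 CPM in the other cells. *Ptgs2* had no UMI in these members and a mean of 1.18 CPM in the other cells, so that it did not set the groups apart. Outside these pools, *Ptgs2* was at 20.1 CPM in the members of E12.5 replicate 2. *Dhh* encodes a signal and *Ptgds* an enzyme that makes one, and neither signal was itself measured in these cells. Their promoters are shown with the letters that SOX proteins prefer (RefSeq, GRCm38.p6, 250 bases before to 50 after the start, 5′ to 3′ on the strand of the gene, *Dhh* at chr15:98898491-98898790 on the minus strand and *Ptgds* at chr2:25469700-25469999 on the minus strand). Capitals mark a SOX motif.
Dhh: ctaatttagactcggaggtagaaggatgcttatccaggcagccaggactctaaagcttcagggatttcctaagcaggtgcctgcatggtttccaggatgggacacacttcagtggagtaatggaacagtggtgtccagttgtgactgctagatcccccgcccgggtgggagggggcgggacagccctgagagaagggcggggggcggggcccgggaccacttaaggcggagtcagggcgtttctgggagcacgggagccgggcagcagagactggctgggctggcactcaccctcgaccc
Ptgds: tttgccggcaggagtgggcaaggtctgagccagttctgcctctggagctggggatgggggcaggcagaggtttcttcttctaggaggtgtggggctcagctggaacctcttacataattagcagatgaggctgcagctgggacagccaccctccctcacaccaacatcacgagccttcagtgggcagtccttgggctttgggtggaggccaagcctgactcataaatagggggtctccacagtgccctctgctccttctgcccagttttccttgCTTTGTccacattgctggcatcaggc
The *Ptgds* window held 1 SOX motif, on the reverse strand and starting 24 bases after the start site, and the *Dhh* window none. Motifs were searched on both strands as AACAAT or the letters ACAAAG for SOX, as AAGGTCA or the form AAGGCCA for NR5A1, and for GATA as AGATAA or AGATAG and as TGATAA or TGATAG. A SOX motif was in 27.03% of all 32851 promoters, in 21.2% of the 8402 matched among the genes compared, and in 28.1% of the 192 matched among the 263 higher genes. The shares were 10.6%, 9.94% and 24 of 192 for NR5A1, and 29.8%, 21.3% and 35.4% for GATA. These are letters in a window, and no binding was measured.

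Of 16 other Sertoli marker genes at 10 CPM or more, 12 were among the 4-fold higher genes and none among the lower, with a median log2 ratio of 2.85. They include *Mro* (448 ± 72.6 against 54 ± 37.3 CPM), the calcium-binding *Tesc* (453 ± 129.4 against 46.7 ± 32 CPM), the homeobox gene *Rhox8* (286 ± 150.2 against 19.3 CPM) and the coactivator *Cited1* (529.8 ± 127.97 against 76.1 CPM). *Cst9*, a cystatin of fetal Sertoli cells and long known as testatin, was at 1104 ± 257 against 161 ± 97.5 CPM. *Cldn11*, the claudin of the later blood-testis barrier, was at 98.4 ± 76.6 CPM and ran from 23.1 to 248 CPM over the pools, with the highest values at E13.5 and E14.5. Among 12 maturation genes at that level 5 were higher and 1 lower, with a median of 1.08. *Shbg*, the androgen-binding protein, was already at 348 ± 123.2 against 21.9 CPM, while *Fshr*, the FSH receptor, was at 19.3 ± 15.4 against 2.84 CPM. *Shbg* was higher in the members in all 8 pools.

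Receptors and pathway genes placed several signals on opposite sides of the 2 groups. *Amhr2*, the receptor of anti-Müllerian hormone, was at 355 ± 114.7 against 62.4 ± 31.1 CPM, and so was higher in the cells chosen for the ligand. In the hedgehog pathway, 1 of 12 genes at 10 CPM or more was higher, *Dhh*, and 5 were lower, with a median log2 ratio of −2.08. The response genes *Gli1* (0.268 against 19.6 ± 8.87 CPM) and *Hhip* (2.60 against 66.1 ± 33.1 CPM) were near 0 in the members, which carry RNA of the ligand gene. The receptor *Ptch1* was at 110.97 ± 58.7 against 152 ± 44 CPM. In the Notch list, 1 of 13 was higher, the target gene *Hes5* (42.7 ± 24.3 against 3.96 ± 3.39 CPM), and 1 lower, the receptor gene *Notch3* (5.31 against 33.5 CPM). *Hes1*, a relative of *Hes5*, was at 142.3 ± 122.9 against 265 CPM and under 4-fold apart. Of 19 hormone and growth factor receptors 2 were higher and 3 lower, with a median of −0.14.

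In retinoic acid metabolism the members stood higher in *Aldh1a1* (791 ± 179 against 187 CPM), which makes retinoic acid, and in *Cyp26b1* (69.1 ± 43.4 against 28.8 CPM), which degrades it and keeps it from fetal germ cells. *Cyp26b1* was at 156 CPM in E13.5 replicate 2 and between 26.9 and 106.97 CPM in the later pools. Of 12 genes of this list 2 were higher and 3 lower. Junction genes had 4 higher and 1 lower of 18, with *Gja1* (connexin 43, 417 ± 78.4 against 98.04 CPM), *F11r* (297 ± 58.9 against 73.1 CPM) and *Jam2* (263 ± 88.1 against 38.2 CPM). Basement membrane genes had 2 higher and 2 lower of 19, where *Col9a3*, a collagen of the fetal testis cords, ran from 576 CPM at E14.5 to 21.8 CPM in E16.5 replicate 2. No gene of the glycolysis list was 4-fold apart in either direction among 19, with a median log2 ratio of 0.32. *Ldha* was at 555 ± 120.1 against 489 CPM. Of 10 genes of the ovarian pathway none was 4-fold apart, and *Foxl2* was at 3.25 against 3.00 CPM.

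The 15 genes with the largest ratio over the other cells, among those at 50 CPM or more in members, began with *Platr26*, a long non-coding RNA (100.1 ± 75.01 against 1.94 CPM, log2 ratio 5.04), *Nipal1* (62.7 against 1.85 CPM, 4.72), *Etd* (308 ± 137.1 against 14.9 CPM, 4.64), *Plppr4* (68.7 ± 17.9 against 2.31 CPM, 4.52) and *Spata21* (199 ± 63.9 against 12.96 CPM, 4.34). *Shbg* and *Dmrt1* were among the 15, as were *Tmcc3*, *Cnga1*, *Chp2*, *Bcan*, *Clec12b* and the unnamed models *AU015836*, *8030411F24Rik* and *Gm37350*, with log2 ratios between 3.89 and 4.24 for these 8 genes.

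**Figure D3:**
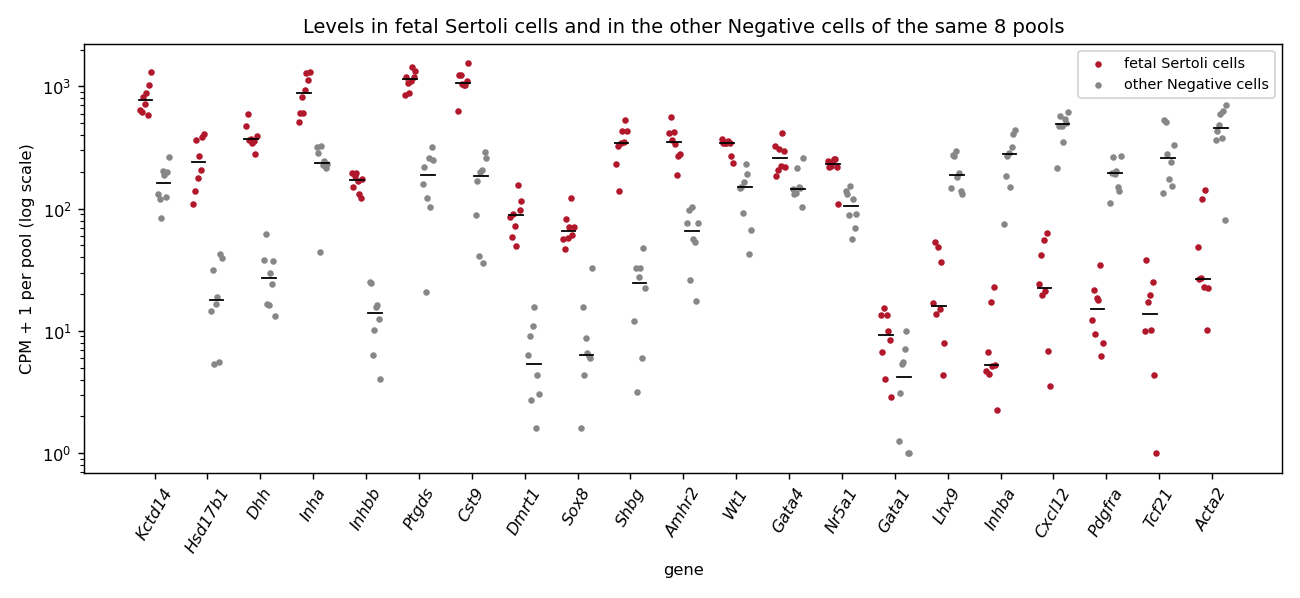
CPM + 1 on a log axis for 21 genes, with 1 point for each of 8 pools, in fetal Sertoli cells and in the other Negative cells. *Inhbb*, *Dhh*, *Dmrt1* and *Shbg* lie higher in the Sertoli cells in every pool, *Inhba*, *Cxcl12* and *Lhx9* lie lower in every pool, and *Gata4* comes closest among the genes shared by the gonadal soma.

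Markers of other cells were measured in the members as well, since a cell on a plate can carry RNA of others. Interstitial markers had 0 higher and 7 lower of 10, with a summed level of 141.9 to 542 CPM in members and 1606 to 2834 CPM in the other cells, and peritubular markers had 0 higher and 5 lower of 7. Leydig markers had 1 higher, *Inha*, and 2 lower of 7, with a sum of 885 to 1836 CPM in members and 127.5 to 1932 CPM in the others. Endothelial markers had 0 higher and 2 lower of 7 (48.6 to 95.4 against 55.7 to 334 CPM). Among germ cell, blood, macrophage, coelomic and mesonephric markers at 10 CPM or more none was 4-fold apart, and the whole lists summed to at most 395, 2447, 105.7, 266.5 and 97.8 CPM in members. *Ddx4*, the germ cell helicase, was between 1.28 and 43.7 CPM and reached 100 CPM in 0 members, against 19 of the other cells. *Insl3* of Leydig cells was at or below 5.49 CPM and reached 100 CPM in 0 members. Yet *Cyp11a1*, the first enzyme of steroid synthesis, followed the pool more than the group. It was at 277 CPM in members and 399 CPM in the other cells of E13.5 replicate 2, 266 and 497 CPM in E15.5 replicate 2, 297 and 501 CPM in E16.5 replicate 2, and 4.44 and 4.19 CPM in E15.5 replicate 1. *Hba-a1*, an adult alpha globin, was at 848 CPM in members and 819 CPM in the other cells of E16.5 replicate 1, the highest pool in both. *Xist*, which marks female cells, ran from 0 to 47.4 CPM in members and 0 to 40.8 CPM in the others. The part of such shared RNA in the levels above was not tested.

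**Figure D4:**
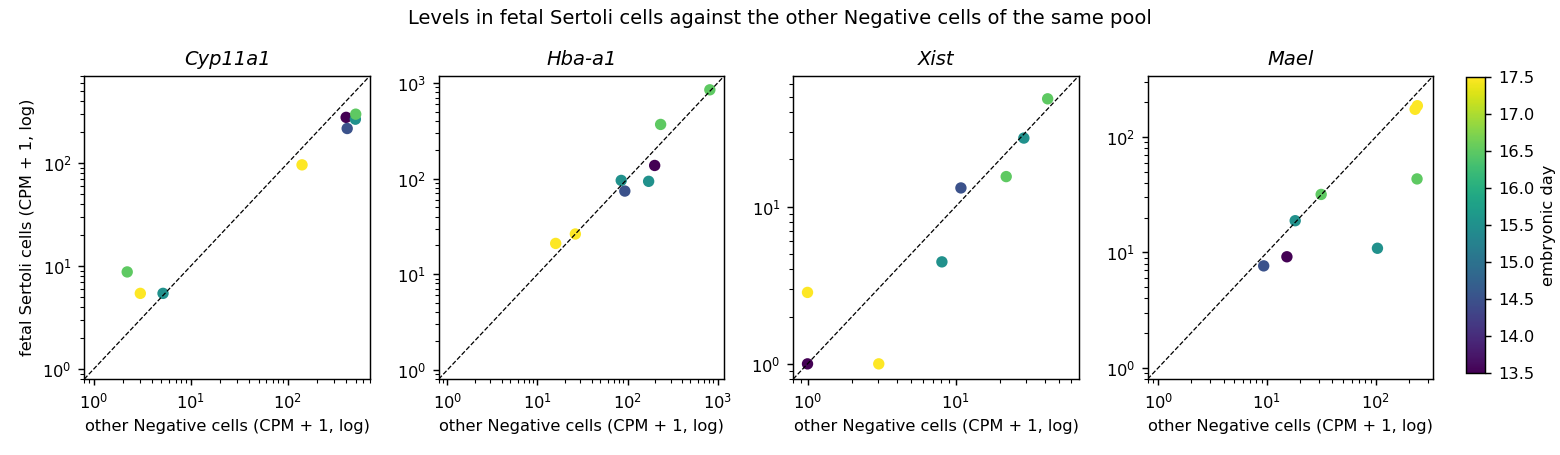
Level in fetal Sertoli cells (vertical) against the level in the other Negative cells (horizontal) of the same pool, CPM + 1 on log axes, for 8 pools colored by embryonic day, with a dashed line of equality. *Cyp11a1* and *Hba-a1* follow the line from pool to pool, with 4.44 against 4.19 CPM and 848 against 819 CPM as examples, and *Mael* reaches 185 against 240.1 CPM in E17.5 replicate 2.

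With embryonic day, 42 (0.334%) of 12568 genes tested changed in the fetal Sertoli cells of the 8 pools from E13.5 to E17.5, 29 (0.231%) upward and 13 (0.103%) downward (edgeR's quasi-likelihood test with Benjamini-Hochberg adjustment). Without E13.5 replicate 2 the counts were 4 upward and 0 downward, without E14.5 replicate 1 5 and 1, without E17.5 replicate 1 9 and 3, and without E17.5 replicate 2 3 and 3. Without E16.5 replicate 1 they were 13 and 5, without E15.5 replicate 2 16 and 9, and without E16.5 replicate 2, which has 5 members, 38 and 38. Of the 42 genes 3 were called without E13.5 replicate 2 and 5 without E17.5 replicate 2. The smallest adjusted p-values among the genes that rose belonged to a pair of secreted inhibitors of proteases. *Cst12*, a cystatin gene on chromosome 2 (148789361 to 148793546, plus strand, mm10), was at 54.3 CPM in E13.5 replicate 2, 144.4 CPM in E14.5 replicate 1, 349 and 316 CPM at E15.5, 601 and 548 CPM at E16.5, and 740.2 and 1224 CPM at E17.5. Its slope was 1.04 ± 0.08 log2 per day (SE, adjusted p = 1.275e-06). Each day lay above the one before it, with no overlap. *Serpina5*, the protein C inhibitor on chromosome 12 (104101113 to 104106137, plus strand), was at 29.3 CPM at E13.5, 67.02 CPM at E14.5, 146.4 and 80.9 CPM at E15.5, 181 and 255 CPM at E16.5, and 373 and 359 CPM at E17.5, with a slope of 0.93 ± 0.10 (adjusted p = 0.000104). Its 2 highest pools were those of E17.5 and its lowest that of E13.5.

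The pools left out of this test for having under 5 members gave values at the ends of both courses. In the 9 members of the E12.5 pools and E13.5 replicate 1, *Serpina5* had no UMI, which allows up to 1.83 CPM, and *Cst12* had none at E12.5 and 65.9 CPM in E13.5 replicate 1. In the 3 members of E18.5 replicate 2, *Cst12* was at 1269 CPM and *Serpina5* at 334 CPM. Per cell, *Cst12* reached 100 CPM in 3 of 10 members of E13.5 replicate 2, 8 of 17 of E14.5 replicate 1, 23 of 24 of E16.5 replicate 1 and 18 of 18 of E17.5 replicate 1. Both genes passed the threshold under each of 20 other settings that give a slope per day, and *Cst12* did not where early and late pools were compared as 2 groups (adjusted p = 0.121).

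The promoters of *Cst12* and *Serpina5* are given because these genes rose together (RefSeq, GRCm38.p6, same window, *Cst12* at chr2:148789115-148789414 and *Serpina5* at chr12:104100863-104101162, both on the plus strand). Capitals mark SOX motifs.
Cst12: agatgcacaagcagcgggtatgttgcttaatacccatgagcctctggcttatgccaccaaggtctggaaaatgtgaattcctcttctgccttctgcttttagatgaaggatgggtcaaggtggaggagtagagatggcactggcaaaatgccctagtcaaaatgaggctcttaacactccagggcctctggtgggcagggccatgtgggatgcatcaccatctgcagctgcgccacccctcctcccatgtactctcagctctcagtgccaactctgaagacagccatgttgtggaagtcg
Serpina5: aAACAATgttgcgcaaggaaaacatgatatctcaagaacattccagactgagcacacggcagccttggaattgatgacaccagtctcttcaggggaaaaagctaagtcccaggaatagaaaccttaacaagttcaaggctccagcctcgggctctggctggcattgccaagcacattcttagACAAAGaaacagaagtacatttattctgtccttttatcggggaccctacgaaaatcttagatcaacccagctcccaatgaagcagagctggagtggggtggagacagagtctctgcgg
The *Serpina5* window held SOX motifs starting 249 and 68 bases before the start site, and the *Cst12* window held none. Neither window held a match of the NR5A1 or GATA letters above.

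Other genes that rose include a steroid enzyme, an inhibin subunit and a cyclin. *Hsd17b1* was at 108.96 and 139.5 CPM at E13.5 and E14.5, 363 and 179 CPM at E15.5, 270.1 and 208 CPM at E16.5, and 382 and 406 CPM at E17.5, a slope of 0.47 ± 0.10 (adjusted p = 0.0402). The E15.5 replicates lay farther apart than the E14.5 and E16.5 pools, and the call was lost in 11 of 21 other settings. *Inha* ran from 506 CPM at E13.5 to 1121 and 1319 CPM at E17.5 (slope 0.39 ± 0.07, adjusted p = 0.0150). *Ccnd2*, cyclin D2, the D-type cyclin through which FSH acts on gonadal cells, ran from 166 CPM at E13.5 through 378 CPM at E14.5 to 1027 and 1177 CPM at E17.5 (slope 0.68 ± 0.09, adjusted p = 0.000758). In the E12.5 pools outside the test *Ccnd2* was at 564 and 653 CPM, above the E13.5 and E14.5 pools of the test, so that the course from E12.5 was not one of steady rise. Without E13.5 replicate 2 its slope was 0.49 (adjusted p = 0.0712), and with all pools of at least 3 members it was 0.24 (adjusted p = 0.130). The troponin gene *Tnni3* (193 to 664 CPM) rose too, with a slope of 0.42 (adjusted p = 0.0085), as did the chemokine gene *Ccl17* (22 to 542 CPM, slope 1.20, adjusted p = 0.0346), *Emb* (1.21, adjusted p = 0.0402), *Zbtb20* (0.62, adjusted p = 0.0346), *Igsf9b* (0.80, adjusted p = 0.0176) and *Platr26* (0.94, adjusted p = 0.0325).

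A few of the genes that rose are known from other cells or reached similar levels in the other Negative cells. *Mael*, a piRNA factor of germ cells, had the largest slope named, 1.26 ± 0.18 (adjusted p = 0.00256). In members of the pools of the test it was between 6.64 and 42.3 CPM before E17.5 and at 172 and 185 CPM at E17.5. It was at 229 and 240.1 CPM in the other cells of E17.5. *Fkbp6*, a cochaperone of the same pathway, ran from 6.93 to 165 CPM (slope 1.16, adjusted p = 0.0176), with 6.52 to 221 CPM in the other cells. *Cln3* ran from 32.7 to 220.5 CPM (slope 0.64, adjusted p = 0.0303), with 22.3 to 234 CPM in the others. *Ddx4* and *Dazl*, further germ cell markers, were at 23.1 and 31.4 CPM in E17.5 replicate 1 and 43.7 and 55.1 CPM in E17.5 replicate 2, their highest values in members. In the pools of the test, the summed germ cell list was between 53.8 and 395 CPM in members and 48.6 and 811 CPM in the other cells. The part of germ cell RNA in these slopes was not tested.

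The genes that fell were led by transcripts of fetal and progenitor cells. *Meg3*, a maternally expressed long non-coding RNA on chromosome 12 (109541001 to 109571726), was at 355 CPM in E13.5 replicate 2, 144.7 CPM in E14.5 replicate 1, 40.4 and 89.3 CPM at E15.5, 31.95 and 33.3 CPM at E16.5, and 4.62 and 6.34 CPM at E17.5. Its slope was −1.36 ± 0.16 (adjusted p = 0.000120), and without E13.5 replicate 2 it was −1.50 with an adjusted p of 0.0671. Outside the test it was at 239 and 256 CPM at E12.5 and 7.25 CPM in E18.5 replicate 2. *Hmga2*, a chromatin protein of growing fetal tissues, ran from 154 CPM at E13.5 to 2.77 and 0.634 CPM at E17.5 (slope −1.32, adjusted p = 0.0346). *Olfml3*, a secreted matrix protein, ran from 114.6 CPM to 8 and 1.9 CPM (−1.09), and the transcription factor gene *Sox11* from 112.05 CPM to 4 and 3.8 CPM (−1.25), both with an adjusted p of 0.0346. In the other Negative cells *Hmga2* ran from 170.7 CPM at E13.5 to 0 and 8.11 CPM at E17.5. *Sox11* ran there from 190.4 CPM to 31.5 and 111.5 CPM. Neither was among the genes whose slope differed between the groups. The kinase gene *Ptk2b* and the thioesterase gene *Acot1* had slopes of −0.66 and −0.61 in the members (adjusted p = 0.0392 and 0.0405). The calls of *Sox11*, *Ptk2b* and, among the genes that rose, *Zbtb20* were each lost in 11 of 21 other settings, with a slope of −0.676 for *Sox11* where *Amh* was not in the rule. That of *Acot1* was lost in 9, those of *Olfml3*, *Emb* and *Ccl17* in 8 each, those of *Hmga2* and *Platr26* in 7 each, and those of *Meg3* and *Mael* in 2 each.

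**Figure D5:**
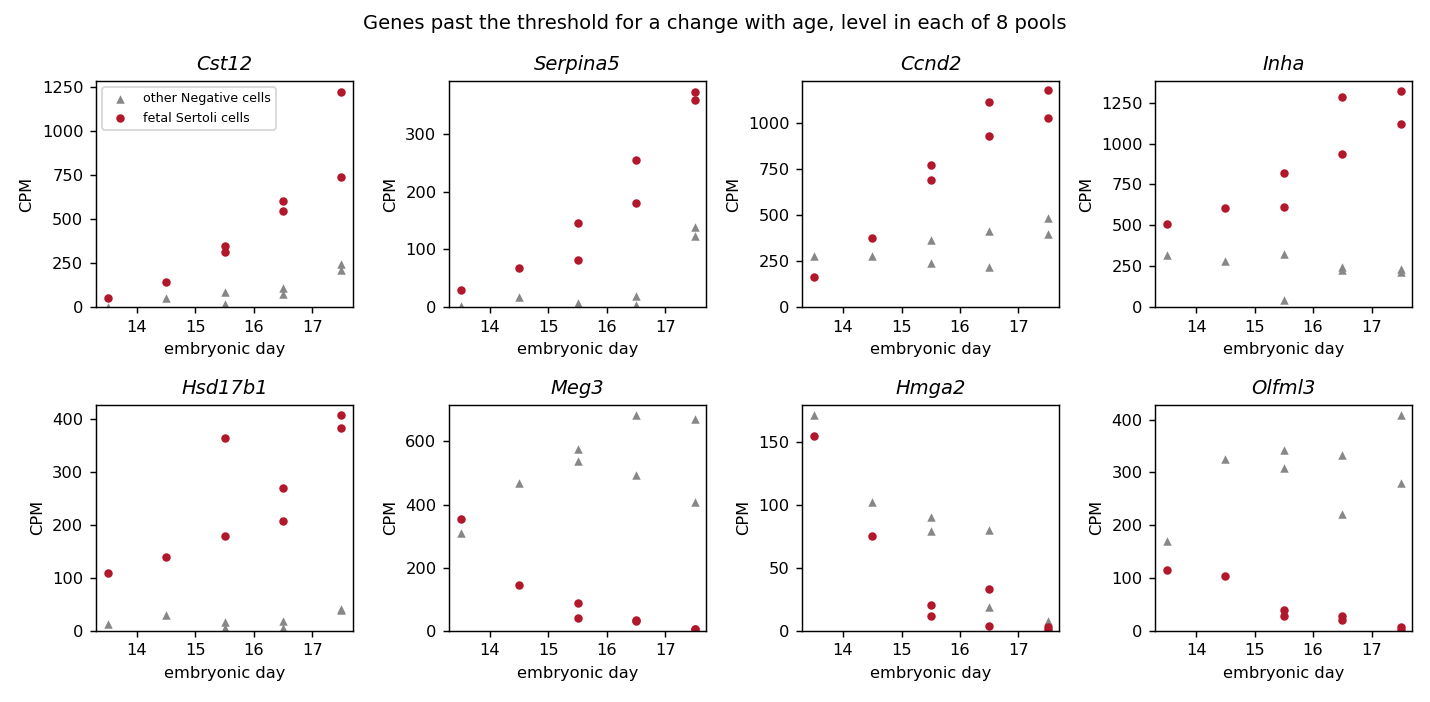
CPM in each of 8 pools against embryonic day for genes past the threshold for a change with age, in fetal Sertoli cells and in the other Negative cells. *Cst12* goes from 54.3 to 1224 CPM and *Serpina5* from 29.3 to 373 CPM in the Sertoli cells, while *Meg3* goes from 355 to 4.62 CPM there and stays between 311 and 683 CPM in the other cells.

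By list, age moved few of the known Sertoli genes past the threshold. Of 17 marker genes 1 rose (*Hsd17b1*), of 21 secreted proteins 2 rose (*Inha* and *Serpina5*), and none of 15 sex determination factors, 15 maturation genes, 19 receptors, 18 junction genes or 20 basement membrane genes passed in either direction. Nor did any of 9 hedgehog, 15 Notch, 9 prostaglandin, 12 retinoic acid, 20 glycolysis or 13 ovarian pathway genes. At an unadjusted p under 0.05, where 794 (6.32%) of all genes were up and 470 (3.74%) down, 8 markers were up and 2 down, 8 secreted proteins were up and 2 down, and 5 maturation genes were up and 1 down. No factor of sex determination was up and 3 were down. Median slopes were 0.07, 0.05 and 0.17 log2 per day for markers, secreted proteins and maturation genes, and 0.0038 for all genes. *Kctd14*, at 638 CPM in E13.5 replicate 2 and 1021 and 1303 CPM at E17.5, had a slope of 0.26 (adjusted p = 0.116), which fell to −0.029 with all pools of at least 3 members, and *Rhox8* one of 0.42 (adjusted p = 0.0966). *Cldn11* had one of −0.59 (adjusted p = 0.0921), and *Ctsl*, the protease cathepsin L, one of 0.32 (adjusted p = 0.101).

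Proliferation genes did not pass either. Of 43 G1/S genes 39 had a positive slope and 7 were up at an unadjusted p under 0.05, with none down and a median slope of 0.17. Of 53 G2/M genes 35 had a positive slope, 2 were up and 1 down, with a median of 0.05. Among all 12568 genes tested, 6352 had a positive slope, 794 (6.32%) were up and 470 (3.74%) down, with a median of 0.0038. *Mki67*, the marker of cycling cells, reached 100 CPM in 56 members (46.3%) and in 54.5% of the other cells. *Top2a*, a topoisomerase of dividing cells, did so in 69 members (57%) and in 62.3% of the other cells, at depths that were not matched. These shares join all days. In the 9 members of both E12.5 pools and E13.5 replicate 1, *Mki67* was at 0, 10.97 and 29.94 CPM by pool. *Top2a* was at 27.1, 38.4 and 21.95 CPM there. In members of the 8 pools of the test they ran from 88.4 to 310 CPM and from 226 to 594 CPM. E18.5 replicate 2, with 3 members, had 88.8 and 390 CPM.

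The change with age differed between fetal Sertoli cells and the other Negative cells of the same pools for 5 (0.0328%) of 15232 genes, with a higher slope in the Sertoli cells for 2 (0.0131%) and a lower one for 3 (0.0197%), with the pool as block. *Meg3* had the clearest difference, −1.60 ± 0.13 log2 per day (adjusted p = 9.369e-08). It stood between 311 and 683 CPM in the other cells, and only the E13.5 pool of members lay within that range. *Olfml3* differed by −1.31 ± 0.17 (adjusted p = 0.000343), with 169 to 408 CPM in the other cells. *Foxs1*, a forkhead gene, went the opposite way, with 5.35 CPM at E13.5 and 114.8 and 106.5 CPM at E17.5 in members, against 81.3 CPM and then 1.66 and 35.5 CPM in the other cells (difference 1.58 ± 0.28, adjusted p = 0.0361). Members were lower than the other cells at E13.5 and E14.5 and higher from E15.5 on. The remaining calls were the unnamed models *Gm2694* (1.77, adjusted p = 0.00131) and *Gm5483* (−3.68, adjusted p = 0.0473). *Gm5483* had no UMI in 5 of 8 pools of members, and in the other cells it was at 1329 CPM in the 5 cells of E17.5 replicate 1, at 129.2 CPM in E16.5 replicate 2 and at or below 2.03 CPM elsewhere. In those 5 cells the macrophage markers summed to 941 CPM, and their part in the call was not tested. Without E17.5 replicate 1 the difference was −1.57 (adjusted p = 0.845), and the call was lost in 9 of 12 other settings, as that of *Foxs1* was in 6 and that of *Gm2694* in 1. For *Cst12* and *Serpina5* the difference of slopes was −0.32 and −0.46 (adjusted p = 0.917 and 0.952), for *Hsd17b1* 0.21 (0.967) and for *Mael* 0.03 (0.996). A slope particular to the Sertoli cells was thus not shown for them. Of the 5 other cells of E17.5 replicate 1, 1 had *Amh* at 1140.5 CPM, *Nr2f2* at 0 CPM and *Sox9* at 58.99 CPM. It missed the rule on *Sox9* alone, and the part of such cells in these slopes was not tested. Leaving out single pools gave 1 to 4 higher and 2 to 9 lower slopes, with 9 lower without E16.5 replicate 2, and *Meg3* and *Olfml3* passed in each. The mean *Cst12* of the other cells was 99.2 CPM and that of *Serpina5* 38.8 CPM.

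From cell to cell, *Hsd17b1* went most closely with *Serpina5* (Spearman rho = 0.562), *Unc13b* (0.558), *Cst12* (0.489), *Mael* (0.481) and *Tnni3* (0.469), over all members and 4411 genes. Cells of all days entered this ranking, and the cells differ in library and depth, so that the values are descriptive.

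The same rule found 37 cells in 8 *Helq* null pools. *Helq* itself was at 6.48, 37.8, 10.8 and 29.3 CPM in the 4 wild-type pools of E13.5 to E15.5 with at least 5 members and at 21.7, 42.9 and 3.64 CPM in the 3 null pools, a log2 difference of −0.11 ± 1.22 (adjusted p = 0.991). Counts of 3′ ends do not read a small deletion in the first exon and so do not check the genotype. With time-point in the fit, 0 genes were higher and 2 (0.0175%) of 11458 lower in the null (edgeR's quasi-likelihood test with Benjamini-Hochberg adjustment), while 717 genes had an unadjusted p under 0.05 and DESeq2 called 36 higher and 63 lower. *Clec12b*, a C-type lectin gene, was at 127.8, 121.6, 57.7 and 64.3 CPM in wild-type and 0.903, 5.84 and 0 CPM in null pools (log2 difference −5.94 ± 0.90, adjusted p = 0.0326). *Spata21* was at 87.3, 248, 273 and 211 CPM against 12.6, 59.1 and 34 CPM (−2.52 ± 0.40, adjusted p = 0.0335). Both genes were among the 15 with the largest ratio of Sertoli to other cells. The groups did not overlap in these 7 pools, but pools outside the fit did. *Clec12b* was at 55.8 CPM in null E13.5 replicate 2 (2 members), 46 CPM in null E15.5 replicate 2 (4 members) and 76.1 CPM in null E18.5 replicate 1 (5 members). *Spata21* was at 81.4 CPM in null E15.5 replicate 2 and without a UMI in wild-type E13.5 replicate 1 (2 members). Neither call was made with at least 3 members (0 lower), with the replicate block (0 higher and 0 lower), without E13.5 or without wild-type E15.5 replicate 1, and in all the call of *Clec12b* was lost in 5 and that of *Spata21* in 8 of 11 other settings.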

How the data were processed

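The authors deposited UMI counts per gene and cell without normalization, made per the labels with CASAVA 1.8, UMI-tools, STAR, Subread and featureCounts. Time-point, genotype, replicate, gate and position of each cell came from the deposited table of cells, since the library labels do not give them for these cells. Cells with more than 2000 genes and 10000 to 1000000 UMIs were kept, and no doublet caller was run on these singly sorted cells. The members and the gene lists were chosen with earlier results of these data known. Counts were summed per pool over members (at least 5) and other Negative cells and tested with edgeR's quasi-likelihood test (edgeR 4.0.16, limma 3.58.1, R 4.3.3, TMM, filterByExpr, robust) at a false discovery rate of 0.05 over all genes, with the 3 genes of the rule not tested. DESeq2 1.42.0 was run beside it. Ratios of members to others added 1 CPM. Member sums held 780476 to 4756819 UMIs in the 8 pools. Tested on simulated data, the age test called 90.9% of genes with a slope of 1 log2 per day (12068 genes). It called 35.8% at 0.5 and 4.48% at 0.25. The test of the difference of slopes called 75.8% at 1, 16.4% at 0.5 and 0% at 0.25 (14470 genes). The genotype test called 54.5% of genes changed by 2 on the log2 scale, 5.97% by 1 and 2.99% by 0.5 (10989 genes). In turn, 4.4%, 4.69% and 8.7% of the calls were false. Only genes above a set mean CPM were changed in these simulations.

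Genes are named if on a list, among the 12 largest rises or falls past the threshold with age, the 15 largest ratios, the 5 largest calls of other tests, or the 5 most like *Hsd17b1*, without unnamed models for age, at a mean log2 CPM of at least 5. *Helq* is named as the targeted gene, and *Xist* was chosen after its values were seen. A few genes that the rule covers are not reported here. Python 3.11.15 with scipy 1.17.1 gave the permutation tests. Alternatives changed the tool, scaling, filter, thresholds, minimum of cells, thinning (50000 UMIs), blocks and pools left out. Coordinates of genes are those of GENCODE M21 on mm10, and promoters are from RefSeq on GRCm38.p6. Columns of other gates and time-points were not used.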

Additional observations from a re-analysis of the deposited data

Results flagged for a closer look

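In 8 pools of fetal Sertoli cells, 93 genes and 9 marker lists were checked for a pool whose gap to the next was over 0.526 of the whole range. For 8 normally distributed values, chance flags about 1 in 20 such groups. These levels were not put on a log scale and come from different days, so that this rate need not hold here. In all, 18 genes or lists were flagged. Of the genes of the cells themselves, *Amh* stood apart at 976.4 CPM in E14.5 replicate 1, *Nr5a1* at 107.7 CPM, its lowest, in E17.5 replicate 2, *Pdgfa* at 441.5 CPM in E17.5 replicate 1, and *Ldha* at 811 CPM in E16.5 replicate 2. E13.5 replicate 2, the only pool of its day with at least 5 members, stood apart as the highest for *Fgf9* (51.8 CPM), *Meg3* (355.0 CPM), *Ptk2b* (216.5 CPM), *Nipal1* (171.5 CPM) and *Cnga1* (150.3 CPM).

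Genes of other cells were highest in single pools. *Igf1* was at 79.36 CPM in E15.5 replicate 2, *Insl3* at 5.489 CPM in E14.5 replicate 1, *Ptgs1* at 3.784 CPM in E16.5 replicate 1, and *Gli1* at 1.281 CPM and *Gm5483* at 55.09 CPM in E16.5 replicate 2. E16.5 replicate 1 had the highest *Hba-a1* (847.8 CPM), summed blood markers (2447 CPM) and summed macrophage markers (105.7 CPM), and E15.5 replicate 2 the highest summed mesonephric markers (97.77 CPM). In the other Negative cells of E16.5 replicate 1 the summed blood markers were at 2315 CPM. The part of this RNA in other levels of these pools was not tested.

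The change per day differed from that of the other Negative cells for 5 genes, by a test of the difference itself (edgeR's quasi-likelihood test with Benjamini-Hochberg adjustment): *Meg3* by −1.60 (adjusted p = 9.369e-08), *Olfml3* by −1.306 (adjusted p = 0.000343), *Gm5483* by −3.68 (adjusted p = 0.0473), *Gm2694* by 1.772 (adjusted p = 0.00131) and *Foxs1* by 1.583 log2 per day (adjusted p = 0.0361).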

How the results depend on the processing

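The counts of genes that changed with age, 29 up and 13 down, depended on the processing. They were 96 and 58 with DESeq2, which shared 40 of the 42 calls, 162 and 149 without the filter on low counts, 5 and 4 with early against late pools as 2 groups, and 17 and 4 after thinning to 50000 UMIs. With other members, they were 91 and 90 for pools of at least 3 members, 38 and 38 for at least 10, 19 and 25 with stricter thresholds, 46 and 42 with looser ones, and 63 and 62 without *Amh* in the rule. A setting added after the data were seen, at least 3 members without E12.5, gave 54 and 21. Leaving out single pools gave 3 to 38 up and 0 to 38 down. No E12.5 pool had 5 members, so leaving out E12.5 changed nothing. *Kctd14* turned to −0.029 with at least 3 members, −0.0294 with looser thresholds and −0.0216 without *Amh*.

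For the difference of slopes, 2 up and 3 down became 40 and 62 with DESeq2, 24 and 48 without the filter and 39 and 34 with at least 3 members, and 1 to 4 up and 2 to 9 down without single pools. For *Helq* null pools, 0 up and 2 down became 36 and 63 with DESeq2, 12 and 42 without the filter, 1 and 0 with at least 3 members, and 0 to 5 up and 0 to 15 down without single pools, where a lone pool of a time-point was assumed to vary like the others. *Helq* itself ran from −1.18 without *Helq* null E13.5 replicate 1 to 1.04 without *Helq* null E15.5 replicate 1, with 0.201 without wild-type E15.5 replicate 2.

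The deviations of same-numbered pools had a mean r of −0.0678 over 12 pairs (−0.404 to 0.323). Pools of different number had −0.177 over 16 pairs (−0.567 to 0.258). These pairs overlap in their pools, and whether pools of a number share a batch was not tested. With the replicate block, 29 genes rose and 9 fell with age, the *Helq* comparison gave 0 and 0 and *Helq* itself 0.166, and without the pool as block the difference of slopes gave 0 up and 2 down. The share in D against P differed by −18.9 points without *Amh* in the rule (exact p = 0.0391), and by −19.8 to −11.8 points without single pools (exact p = 0.0313 to 0.125). The correlation of the share with day ran from 0.164 to 0.506 without single pools. Stricter thresholds gave 90 genes at least 4-fold higher. The causes of these shifts were not tested. Pools of 5 to 24 members limit what low genes can show.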
